A study of Mus musculus with 3 samples.

Results

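Runx1, Runx2, Runx3 and Cbfb make up the core-binding factor family, and the accessible chromatin of these 4 genes, out of 21883 protein-coding genes with a position, is described here in the mouse ECOMG myeloid progenitor line. The genes were chosen by family, with earlier results of these data in view: the number of accessible regions around Runx1 and the height of the region at an end of Runx3 were known. All values below are therefore a description, with no test. All 3 libraries came from ECOMG cells labelled FKBP12F36V_NIPBL, in which NIPBL, the cohesin loader, is fused to a degron, and all were grown with GM-CSF and estradiol. The groups were 0 h without dTAG, 6 h with dTAG and 72 h with dTAG, where dTAG is the small molecule that directs breakdown of the tagged protein. Each group held 1 ATAC-seq library, made from 50000 cells. No library without dTAG at 6 h or 72 h was analysed, so dTAG, time in culture and library cannot be told apart, and no difference below has a replicate check. The labels do not say whether the line is 1 clone.

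RUNX proteins are transcription factors that bind DNA through the Runt domain, and CBFβ, the product of Cbfb, does not bind DNA itself but strengthens the binding of its RUNX partner. RUNX1 is required for the emergence of blood stem cells and for normal myeloid and megakaryocyte maturation, RUNX2 is the master factor of bone formation, and RUNX3 acts in T cells, natural killer cells and other leukocytes. Each Runx gene is transcribed from a distal and a proximal promoter, often called P1 and P2, which give proteins with different N-terminal ends. In zebrafish embryos, loss of cohesin is known to reduce runx1 expression in blood progenitors.

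The starts were taken from RefSeq (GRCm38.p6, the assembly of mm10). Runx1 (chromosome 16, 92601466 to 92826074, minus strand) has a distal start at 92826074 and a proximal start at 92697329, 129 kb downstream. Runx3 (chromosome 4, 135120645 to 135177990, plus strand) has a distal start at 135120645 and a proximal start at 135152545, 31.9 kb downstream. For Runx2 (chromosome 17, 44495987 to 44814797, minus strand) 1 start is listed, at 44814627, the end of the gene where the distal promoter lies. Its proximal promoter was therefore not placed by the annotation. For Cbfb (chromosome 8, 105170674 to 105217989, plus strand) 1 start is listed, at 105170674. The 300 bases from 250 before to 50 after each start are given 5′ to 3′ for the outermost Runx starts, where a shared run of letters was found, and for both proximal starts, for contrast. Capitals mark the RUNX motif, searched as TGTGGT or TGCGGT on both strands, so that ACCACA is TGTGGT read on the other strand.
Runx1 distal, chr16:92826025-92826324, minus strand: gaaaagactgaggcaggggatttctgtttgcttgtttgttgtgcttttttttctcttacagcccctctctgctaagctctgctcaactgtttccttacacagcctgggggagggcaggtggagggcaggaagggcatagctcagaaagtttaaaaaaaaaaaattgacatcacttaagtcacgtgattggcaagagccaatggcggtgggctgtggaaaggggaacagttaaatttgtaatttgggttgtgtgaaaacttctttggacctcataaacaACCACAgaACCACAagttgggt
Runx2 listed start, chr17:44814578-44814877, minus strand: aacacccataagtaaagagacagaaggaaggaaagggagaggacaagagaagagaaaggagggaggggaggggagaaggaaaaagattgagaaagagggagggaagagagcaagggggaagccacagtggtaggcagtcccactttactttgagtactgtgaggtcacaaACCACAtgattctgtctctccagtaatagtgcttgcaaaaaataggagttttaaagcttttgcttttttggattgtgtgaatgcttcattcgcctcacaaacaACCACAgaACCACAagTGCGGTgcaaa
Runx3 distal, chr4:135120395-135120694, plus strand: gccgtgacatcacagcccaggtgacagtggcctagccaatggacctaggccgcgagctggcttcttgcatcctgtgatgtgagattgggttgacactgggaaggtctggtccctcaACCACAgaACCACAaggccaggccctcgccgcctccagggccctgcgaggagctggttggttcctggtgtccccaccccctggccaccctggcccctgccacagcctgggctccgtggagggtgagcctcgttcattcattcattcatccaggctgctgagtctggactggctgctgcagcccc
Runx1 proximal, chr16:92697280-92697579, minus strand: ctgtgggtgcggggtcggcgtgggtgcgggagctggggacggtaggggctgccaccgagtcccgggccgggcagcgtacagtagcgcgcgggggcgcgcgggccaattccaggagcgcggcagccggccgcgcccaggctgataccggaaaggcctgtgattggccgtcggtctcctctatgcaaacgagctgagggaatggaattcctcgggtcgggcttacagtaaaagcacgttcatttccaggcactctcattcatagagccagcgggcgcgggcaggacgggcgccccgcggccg
Runx3 proximal, chr4:135152295-135152594, plus strand: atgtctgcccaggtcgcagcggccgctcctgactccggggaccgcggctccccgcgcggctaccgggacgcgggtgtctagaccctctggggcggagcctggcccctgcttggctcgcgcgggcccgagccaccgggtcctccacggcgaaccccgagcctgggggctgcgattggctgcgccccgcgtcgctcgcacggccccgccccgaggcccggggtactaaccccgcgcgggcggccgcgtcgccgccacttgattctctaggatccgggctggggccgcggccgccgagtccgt

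The outermost windows of the 3 Runx genes shared an unbroken run of 18 bases that holds 2 RUNX motifs side by side.
Shared run: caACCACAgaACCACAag
It began 26 bases after the distal Runx1 start (chr16:92826031-92826048), 21 bases after the listed Runx2 start (chr17:44814589-44814606) and 136 bases before the distal Runx3 start (chr4:135120509-135120526). Of 32817 promoter windows in the table, 4 held the run on either strand, and the fourth belongs to Gm16225, a noncoding RNA gene whose window overlaps that of Runx3. The distal Runx1 and Runx3 windows held 2 motif matches each, and the Runx2 window held 4, of which 1 was TGCGGT. Both proximal windows and the Cbfb window held 0. Among all 32817 windows, 22.4% held at least 1 match, 2.87% at least 2 and 0.289% at least 3. A match is a string of letters and not a measured binding site. The run lay inside a listed region at all 3 times at Runx1 and Runx3, and outside the listed regions at all 3 times at Runx2.

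Base composition separated the distal from the proximal starts. GC content was 45.0% in the distal Runx1 window and 45.3% in the Runx2 window, with 2 CpG dinucleotides in each. The distal Runx3 window held 63.7% GC and 8 CpG. The proximal windows held 69.0% GC and 35 CpG at Runx1 and 77.3% GC and 45 CpG at Runx3, and the Cbfb window held 69.7% GC and 30 CpG. The median GC content of all windows was 52.7%. Each distal Runx window thus had an observed to expected CpG ratio of 0.137 (Runx1), 0.143 (Runx2) or 0.264 (Runx3), against 1.01 at both proximal starts, where a CpG island is known to lie.

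The 0, 6 and 72 h peak lists hold 182233, 178055 and 145044 regions. Each region has a fold, the fragments at its summit over the background of the library, with 1 added to both. The folds lie on a grid from which the number of fragments at the summit was read. The lowest summit in each list is 3 fragments, so a stretch without a region can hold signal below that. The background was 0.323, 0.327 and 0.281 fragments, or 1.01 and 0.870 times that of 0 h at 6 h and 72 h. Folds are each list's own and are set side by side. To place them, starts of coding genes were ranked by their highest fold within 1 kb, among the 11846 starts with a region in all 3 lists, and 100 is the top. Regions at the start were listed for 6 of 7 neutrophil marker genes at 0 h and for 7 at 6 h and 72 h. Progenitor markers had one at 4, 4 and 2 of 6 genes, with none at Kit, the stem cell factor receptor, at 72 h, and none at Mpo, myeloperoxidase, at any time. T-cell markers had one at 0, 1 and 1 of 5 genes, B-cell markers at 1, 1 and 1 of 3, and bone and cartilage markers at 1, 0 and 0 of 3. Erythroid and megakaryocyte markers had one at 4, 5 and 5 of 6 genes, with none at Gata1 at any time. Mast cell and basophil markers had one at 2, 3 and 1 of 5, and monocyte and macrophage markers at 2, 2 and 2 of 3. These counts do not give height. The median fold of the listed starts was 32.1, 33.9 and 70.3 for progenitor markers. It was 22.7, 19.6 and 5.46 for erythroid and megakaryocyte markers and 29.9, 19.6 and 37.5 for neutrophil markers, over genes that differ between times. How far a change in the cells' stage moved with the values below was not tested.

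The distal start of Runx3 held the most accessible region of its locus at 0 h and 6 h, and was not among the 3 highest at 72 h. That region also lies within 1 kb of a listed start of Gm16225, the noncoding RNA gene named above. At 0 h the region at chromosome 4, 135120282 to 135120689, had a fold of 160, from 211 fragments (95% Poisson interval 183 to 241). At 6 h the region at 135120310 to 135120704 had a fold of 182, from 240 fragments (211 to 272). At 72 h the region at 135120286 to 135120634 had a fold of 58.5, from 74 fragments (58.1 to 92.9). The intervals cover counting error only. The 72 h library lay apart from the other 2, whose counts overlapped within these intervals. Among starts it ranked 96.3, 94.3 and 36.7 in the 3 libraries. Of all ranked starts, 13.5% stood at least 10 points lower at 72 h than at 0 h, and 0.236% had a shift lower than the −59.6 points of this start. A region was still listed there at 72 h, and its length at the 3 times was 408, 395 and 349 bp, with its summit at −96, −87 and −132 bases from the start.

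At the proximal start of Runx3 the highest folds within 1 kb were 21.9, 24.9 and 43.7, and the rank was 14.2, 14.8 and 28.1. That highest region lay 437, 415 and 418 bases inside the gene, not over the start. The region over the start had a fold of 21.2 at 0 h (135152155 to 135152618) and 20.3 at 6 h (135152155 to 135152612). At 72 h the same stretch was listed in 2 pieces, with folds of 9.37 (135152193 to 135152305) and 8.59 (135152368 to 135152571). The rank of the window is thus that of the region just inside the gene, which at 72 h stood higher than before while the pieces over the start stood lower. The shift of 13.9 points at 72 h stands beside the 14.5% of starts that were at least 10 points higher, and with a window of 2 kb it was −10.9 points. That wider window takes in a higher region. This region, about 2 kb before the proximal start and 30.0 kb from the distal one, had folds of 55.2, 41.4 and 20.3.

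Both starts of Runx1 were accessible in all 3 libraries. The distal start held a region with a fold of 55.9 at 0 h (92825906 to 92826263), 68.6 at 6 h (92825815 to 92826261) and 82.7 at 72 h (92825895 to 92826261). The summits were 73 fragments (57.2 to 91.8), 90 (72.4 to 111) and 105 (85.9 to 127), with intervals that overlap between neighbouring times and between 0 h and 72 h. Its rank was 39.5, 42.4 and 50.5. The shift of 11 points at 72 h falls in the same 14.5% of starts.

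The proximal Runx1 start held a longer region, whose length was 713, 731 and 994 bp and whose fold was 81.6, 98.0 and 91.3. The summits were 107 (87.7 to 129), 129 (108 to 153) and 116 (95.9 to 139) fragments, and the 3 intervals overlap. A second region at this start reached past the 1 kb window in the 6 h list. There it spanned 92698176 to 92698974, with a fold of 78.4 from 103 fragments and its summit at −1487 bases from the start. Regions that overlap it and touch the window had a fold of 10.6 from 13 fragments at 0 h (92698263 to 92698539) and 7.81 from 9 at 72 h (92698306 to 92698574). With overlapping regions of the 3 lists joined (92697179 to 92698974), the 72 h list also held a region outside the window. It had a fold of 99.9 from 127 fragments, so high signal past the window was not particular to 6 h. The 0 h list held a region outside the window too, whose fold was at most 81.6 and is not given here. The window ranked 61.7 at 6 h and 54.8 at 72 h, a shift of −5.2 points from 0 h that was −1.2 with a window of 2 kb. The proximal start thus ranked above the distal one at each time, by a margin that was narrower at 72 h. In Runx3 the distal start ranked above the proximal one at each time. At 6 h, 3.71% of all starts ranked at least 10 points higher and 3.73% at least 10 points lower than at 0 h, and no listed start of the 4 genes was among them.

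The listed start of Runx2 was the weakest of the family. It held 1 region of 57 bp with a fold of 4.54 at 0 h (44814743 to 44814799), from 5 fragments (1.62 to 11.7). At 6 h the region was 162 bp with a fold of 14.3, from 18 fragments (10.7 to 28.4), and at 72 h it was 140 bp with a fold of 11.7, from 14 fragments (7.65 to 23.5). The rank was 0.654, 8.04 and 8.23, near the bottom in all libraries, and the interval of 0 h overlaps those of the later times. The longest region of the Runx2 locus lay inside the gene, about 78.8 kb from this start, and is named after its values were seen. It measured 1510, 1508 and 1174 bp (44735096 to 44736605 in the 0 h list), with folds of 27.2, 30.1 and 25.8. Whether it covers the proximal promoter was not tested.

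Cbfb had a single listed start, with a broad region over it. At 0 h it had a fold of 70.3 (105170147 to 105171142, 996 bp), at 6 h of 91.2 (105170309 to 105171053, 745 bp) and at 72 h of 103 (105170132 to 105171098, 967 bp). The summits were 92 (74.2 to 113), 120 (99.5 to 143) and 131 (110 to 155) fragments, and neighbouring intervals overlap. Its rank was 50.6, 57.4 and 60.7, a shift of 10.1 points at 72 h, also among the 14.5%.

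**Figure D1:**
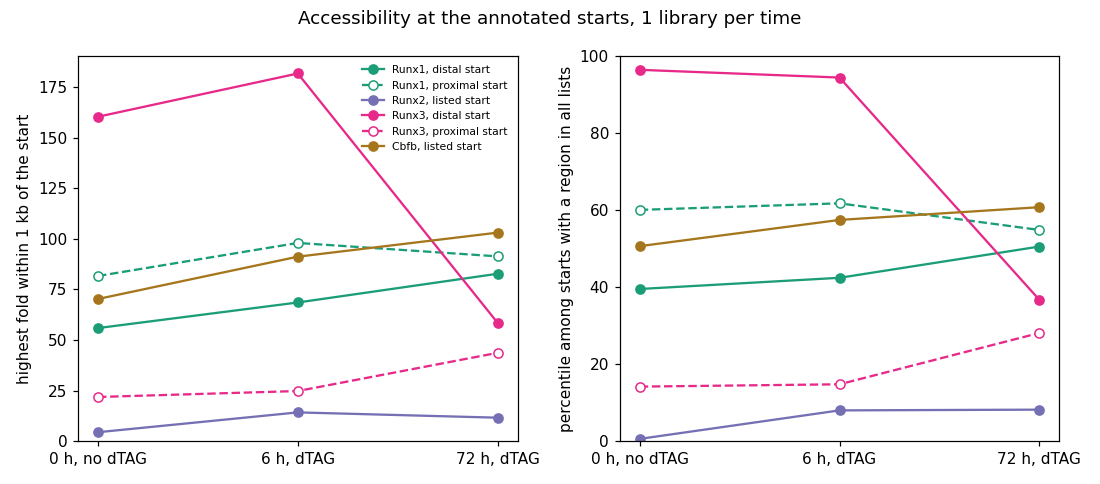
Highest fold within 1 kb of each listed start (left) and its percentile among starts with a region in all lists (right), by library, with 1 library per time at evenly spaced positions. The distal Runx3 start has a fold of 182 at 6 h and 58.5 at 72 h, while the other starts stay within 14 points of their 0 h rank.

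Regions were then counted over each gene with 50 kb on each side. The Runx1 locus held 68, 76 and 75 regions in the 0, 6 and 72 h lists. The Runx2 locus held 70, 65 and 79, the Runx3 locus 42, 36 and 38, and the Cbfb locus 28, 29 and 32. The counts of Runx1, Runx2 and Cbfb were thus higher at 72 h than before dTAG, in a list that was 0.796 times as long. Of 10193 coding loci with at least 20 regions at 0 h, 35.0% had a higher count at 6 h than at 0 h and 20.1% had one at 72 h, with median ratios of 0.969 and 0.862. The 72 h to 0 h ratio was 1.103 (exact 95% interval 0.784 to 1.56) for Runx1, 1.13 (0.808 to 1.58) for Runx2, 0.905 (0.568 to 1.44) for Runx3 and 1.14 (0.667 to 1.97) for Cbfb. In lists of equal length the Runx3 ratio was 1.23, and in the gene span alone it was 0.708. Among regions of fold 10 or more the Cbfb ratio was 0.933 and the Runx2 ratio 1.81. All 4 intervals include 1 and, as counting intervals of 1 library each, also include the median of the other loci. In the whole lists the median fold was 6.80, 7.54 and 9.37, and regions of fold 20 or more were 36534 of 182233 at 0 h, 21.9% at 6 h and 29.2% at 72 h. In the 4 loci together they were 48 of 208, 55 of 206 and 67 of 224, or 23.1%, 26.7% and 29.9%, so that at 72 h their share was near that of the list. Regions of this height numbered 16, 18 and 23 at Runx1, 12, 12 and 21 at Runx2, 11, 14 and 15 at Runx3, and 9, 11 and 8 at Cbfb.

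**Figure D2:**
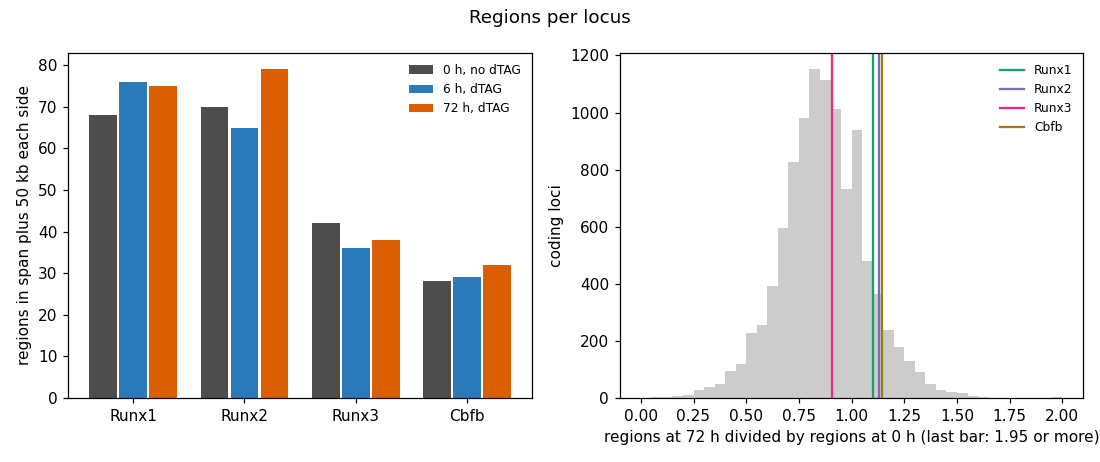
Left, regions in each gene span plus 50 kb on each side, by library. Right, the ratio of regions at 72 h to 0 h over 10193 coding loci (grey bars), with the 4 genes as lines: Runx3 at 0.905 lies in the middle of the loci, and Runx1 at 1.103, Runx2 at 1.13 and Cbfb at 1.14 lie to the right of it.

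Inside the Runx3 gene itself the lists held 24, 18 and 17 regions, and its flanks held 18, 18 and 21. At Runx2 nearly all regions lay inside the gene, 64, 62 and 75. At Runx1 the gene held 48, 48 and 53. Cbfb held only 4, 6 and 5 inside the gene, and most regions of its locus lay in or near its neighbours Ces4a, D230025D16Rik, B3gnt9, Tradd and Fbxl8. Tradd, the adaptor of the TNF receptor, alone held 6, 7 and 8. The Runx2 locus overlaps Supt3, a gene of a histone acetyltransferase complex, whose span took in 10, 9 and 14 of the regions counted.

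Most 0 h regions of the 4 loci were listed again. Of all 0 h regions, 23.4% had no overlapping region at 6 h and 40.2% had none at 72 h. At 72 h the share without overlap was 11.8% for Runx1 (8 of 68, exact 95% interval 5.22 to 21.9), 14 of 70 for Runx2 (interval 11.4% to 31.3%), 35.7% for Runx3 (15 of 42, 21.6 to 52.0) and 21.4% for Cbfb (6 of 28, 8.30 to 41.0). At 6 h it was 13.2% for Runx1 (9 of 68), 22.9% for Runx2 (16 of 70), 28.6% for Runx3 (12 of 42) and 14.3% for Cbfb (4 of 28). With this flank, the 72 h shares of all 4 loci were below that of the list, while the 6 h share of Runx3 was above it. For Runx3 the 72 h order depended on the flank. With a flank of 10 kb, 16 of 29 regions of 0 h were overlapped at 72 h (55.2%), and in the gene span alone 13 of 24 (54.2%). The Runx3 share without overlap was then above the 40.2% of the list. The regions of a locus are not independent, and strong regions are listed again more often.

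Of all 72 h regions, 22.8% had no overlapping region at 0 h, against 22.7% at Runx1 (17 of 75), 30.4% at Runx2 (24 of 79), 26.3% at Runx3 (10 of 38) and 18.8% at Cbfb (6 of 32). Of all 6 h regions, 21.8% had none at 0 h, against 19 of 76 at Runx1, 18.5% at Runx2, 19.4% at Runx3 and 13.8% at Cbfb. At 72 h 2 of the loci lay above the background and 2 below it.

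Of the regions listed at 1 time and without overlap at another, 13 had a fold of 10 or more: 5 in the Runx1 locus, 5 in Runx2 and 3 in Runx3. Of these, 1 was listed at 0 h, 2 at 6 h and 10 at 72 h, which is 1.16%, 2.15% and 8.85% of the 86, 93 and 113 regions of that height in the 4 loci. Over the whole lists the shares were 6.28%, 5.74% and 7.72%, so the 72 h share of the loci was near the background. In the Runx2 gene, those listed at 72 h and absent at 0 h lay 86.7 kb (44727776 to 44728106, fold 43.7, 55 fragments), 92.3 kb (44722197 to 44722364, fold 24.98), 123 kb (44691620 to 44691770, fold 14.1) and 22.2 kb (44792331 to 44792475, fold 11.7) from the listed start. The first of these was listed at 6 h too, with a fold of 12.8 (44727820 to 44728046), and so was that at 123 kb, with a fold of 3.01. Those at 92.3 and 22.2 kb had no region within 500 bp in either earlier list. In the Runx1 locus, the highest such region lay upstream of the distal start, at −47.7 kb (92873526 to 92873872, fold 24.98 at 72 h), and was listed at 6 h with a fold of 3.77. Within 500 bp of it stood an element at −48.1 kb that was listed at all 3 times, with folds of 46.9, 49.0 and 79.6. Another, 43.1 kb inside the gene (92782916 to 92783045), had a fold of 10.1 at 72 h and was absent at 0 h and 6 h. Runx1 regions at 7.38 and 210 kb, with folds of 18.7 and 10.9 at 72 h, were missing at 6 h only, and 1 at 7.06 kb with a fold of 11.3 at 6 h was missing at 72 h. In the Runx3 locus, regions with a fold of 10.9 at 72 h lay at −40.6 kb, upstream, and 39.3 kb inside the gene, each with 1 region of the earlier lists within 500 bp, and a region 5.93 kb inside the gene (135126523 to 135126633), with a fold of 15.1 at 0 h, had none at 72 h. The Cbfb locus had 0 regions of this kind.

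To follow the elements that were present throughout, overlapping regions of the 3 lists were joined into elements. Of 237542 elements, 98083 held a region in every list, and 74518 of these lay more than 1 kb from any listed start or coding gene end and are called distal here. They were ranked by fold within each library. At 72 h, 29.8% of all distal elements ranked at least 10 points higher than at 0 h and 32.7% at least 10 points lower. At 6 h the shares were 18.8% and 18.6%. Those that ranked higher at 72 h were 19 of 43 at Runx1 (44.2%), 19 of 43 at Runx2 (44.2%) and 8 of 19 at Runx3 (42.1%). Those that ranked lower were 11 of 43, 5 of 43 and 2 of 19. The Cbfb locus had 1 higher and 3 lower of 8. The median shifts were 1.62, 5.29, 8.84 and −7.31 points, against −1.36 over all distal elements. At 6 h, 13 of 43, 14 of 43, 7 of 19 and 2 of 8 ranked higher, and 9, 5, 0 and 2 lower. Elements of 1 locus are neighbours in the same libraries, so these counts describe the loci and have no test. Rank moves most easily for weak elements, whose summits hold few fragments.

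**Figure D3:**
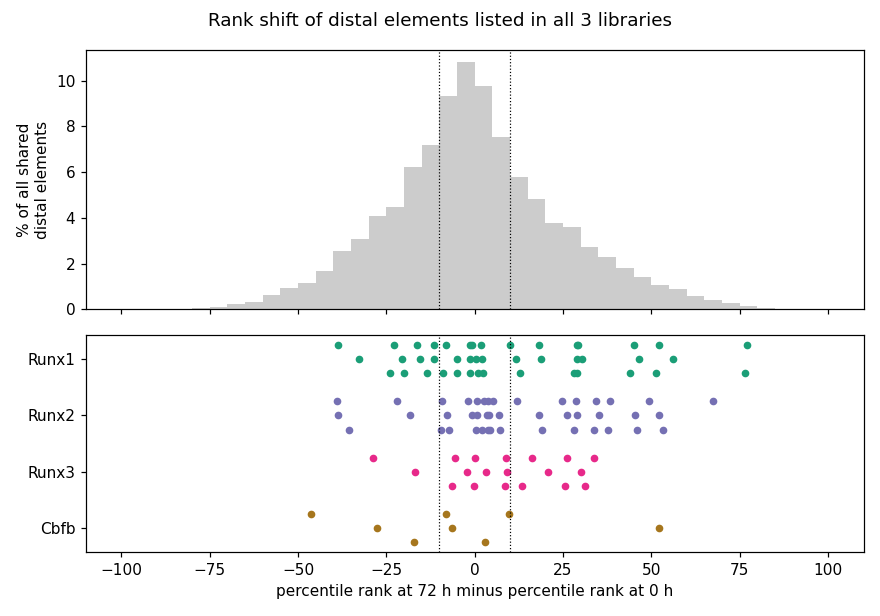
Percentile rank at 72 h minus that at 0 h, for all 74518 distal elements listed in all 3 libraries (upper panel, share per 5-point bin) and for those of the 4 loci (lower panel, 1 point per element, spread vertically for view). Dotted lines mark 10 points in either direction; Runx1 and Runx2 each have 19 points to the right of the lines, and Cbfb has 1.

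The highest element of the Runx1 locus at each time lay deep in the gene, 205 kb from the distal start (92620511 to 92621616), with folds of 117, 147 and 215 in the 0, 6 and 72 h lists. The next was upstream of the gene, at −38.3 kb (92864129 to 92864640), with folds of 93.0, 115 and 184. Both kept their places at the top of the distal ranking, with shifts under 1 point. An element 38.9 kb inside the gene (92786741 to 92787533), between the 2 promoters, had folds of 59.7, 72.3 and 113. Elements with larger shifts stood close to the first. At 213 kb the folds were 12.1, 19.6 and 87.4 and the rank was 46.6 points higher at 72 h. At 217 kb they were 4.54, 3.77 and 39.8, or 5, 4 and 50 fragments, a shift of 76.6 points. At 218 kb they were 17.4, 29.4 and 65.6, and at 185 kb 9.83, 17.3 and 60.1. From the proximal start to the end of the gene, 5 of 9 distal elements ranked at least 10 points higher at 72 h and 3 lower.

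Between the promoters of Runx1 the shifts went both ways, with 7 of 19 elements at least 10 points higher and 6 lower. An element 112 kb from the distal start (92713903 to 92714101) had folds of 4.54, 3.77 and 40.6, the widest shift of the locus at 77.0 points. An element at 22.8 kb had folds of 4.54, 7.54 and 18.7. Its neighbour at 24.2 kb (92801488 to 92802228) had 43.1, 45.2 and 21.9, a shift of −22.8 points, and the element next to it (92800724 to 92801341) had 46.9, 40.7 and 39.0. This first intron is known to hold a blood enhancer of Runx1 downstream of the distal promoter. Whether these elements are that enhancer was not tested. Just before the distal start, an element at −2.08 kb had folds of 34.0, 35.4 and 14.1 and a shift of −32.9 points at 72 h, while that of the distal start itself was 11 points. Farther upstream, at −35.8 and −36.6 kb, elements with folds of 11.3, 22.6 and 60.9 and of 5.29, 8.29 and 19.5 ranked 45.1 and 52.1 points higher.

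In Runx2 the high elements lay in the middle of the gene. The pair at 160 kb (44654408 to 44655099) and 161 kb (44653133 to 44653456) had folds of 61.2, 57.3 and 116 and of 42.3, 43.7 and 91.3. The element at 105 kb had folds of 43.8, 54.3 and 81.2. The highest region of the locus at 0 h and 6 h, with folds of 80.1 and 100.97, lay inside Runx2 (44776672 to 44777740 at 0 h). It lay within 1 kb of a listed start of Supt3, the neighbouring gene, and stood at 98.4 at 72 h. Weaker elements showed the wide shifts. At 112 kb an element (44702950 to 44703225) had folds of 5.29, 6.03 and 33.6, or 6, 7 and 42 fragments, a shift of 67.5 points, and its neighbour (44702085 to 44702441) had 8.32, 8.29 and 42.9. At 151 kb an element (44663886 to 44664354) had folds of 15.9, 22.6 and 78.1. At 124 kb the folds were 9.07, 20.3 and 36.7, already 32.1 points higher at 6 h. The element with the largest downward shift, of −39.0 points, lay outside the gene, 359 kb from the listed start and beyond the 3′ end (44455744 to 44455943), with folds of 37.0, 22.6 and 12.5. Inside the gene, an element at 199 kb (44615704 to 44615954) had 21.9, 12.1 and 8.59.

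Around Runx3, 8 of 19 distal elements ranked at least 10 points higher at 72 h, against a lower rank at the distal start. At 72 h the highest region of the locus lay 85.7 kb downstream of the distal start, beyond the end of the gene (135206138 to 135206618), with folds of 103, 118 and 141. At 82.8 kb (135203159 to 135203715) the folds were 37.0, 67.1 and 105, and at 58.6 kb, just past the gene's end (135179033 to 135179456), they were 25.7, 42.2 and 81.2. The rank shifts of these elements at 72 h were −0.178, 9.08 and 16.3 points, in the order given. Within the gene, elements at 21.3 kb (135141821 to 135142049) and 8.38 kb (135128856 to 135129196), both between the promoters, had folds of 15.1, 33.2 and 65.6 and of 37.8, 39.9 and 62.5. The first ranked 24.9 points higher at 6 h and 33.8 at 72 h, and the second 3.14 points higher at 72 h. The element at 30.0 kb (135150492 to 135150754), described above, had a shift of −28.9 points at 72 h. An element in the neighbouring gene Clic4, at 106 kb, was the other that stood at least 10 points lower, with folds of 23.4, 27.9 and 16.4.

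In Cbfb, 1 element inside the gene, 1.52 kb from the start (105172062 to 105172322), had folds of 5.29, 4.52 and 19.5, or 6, 5 and 24 fragments, and ranked 52.1 points higher at 72 h. Upstream, elements at −13.0 and −12.4 kb had folds of 27.2, 17.3 and 18.7 and of 13.6, 13.6 and 7.03, with shifts of −17.1 and −27.7 points. The lowest shift, −46.3 points, lay 67.0 kb downstream in D230025D16Rik, with folds of 18.9, 18.8 and 6.25. Downstream of the gene, the high regions of the locus went both ways. The element at 54.6 kb, at a start of D230025D16Rik, had folds of 55.2, 49.0 and 59.3. Elements at 83.9 and 84.5 kb in B3gnt9 had folds of 57.5, 63.3 and 41.4 and of 53.7, 62.5 and 20.3, and the element at 89.1 kb in Tradd had 46.1, 38.4 and 19.5. The regions at 94.0 and 94.7 kb lie in Tradd and Fbxl8, with folds of 54.4, 79.1 and 74.9 and of 33.3, 46.7 and 67.1.

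**Figure D4:**
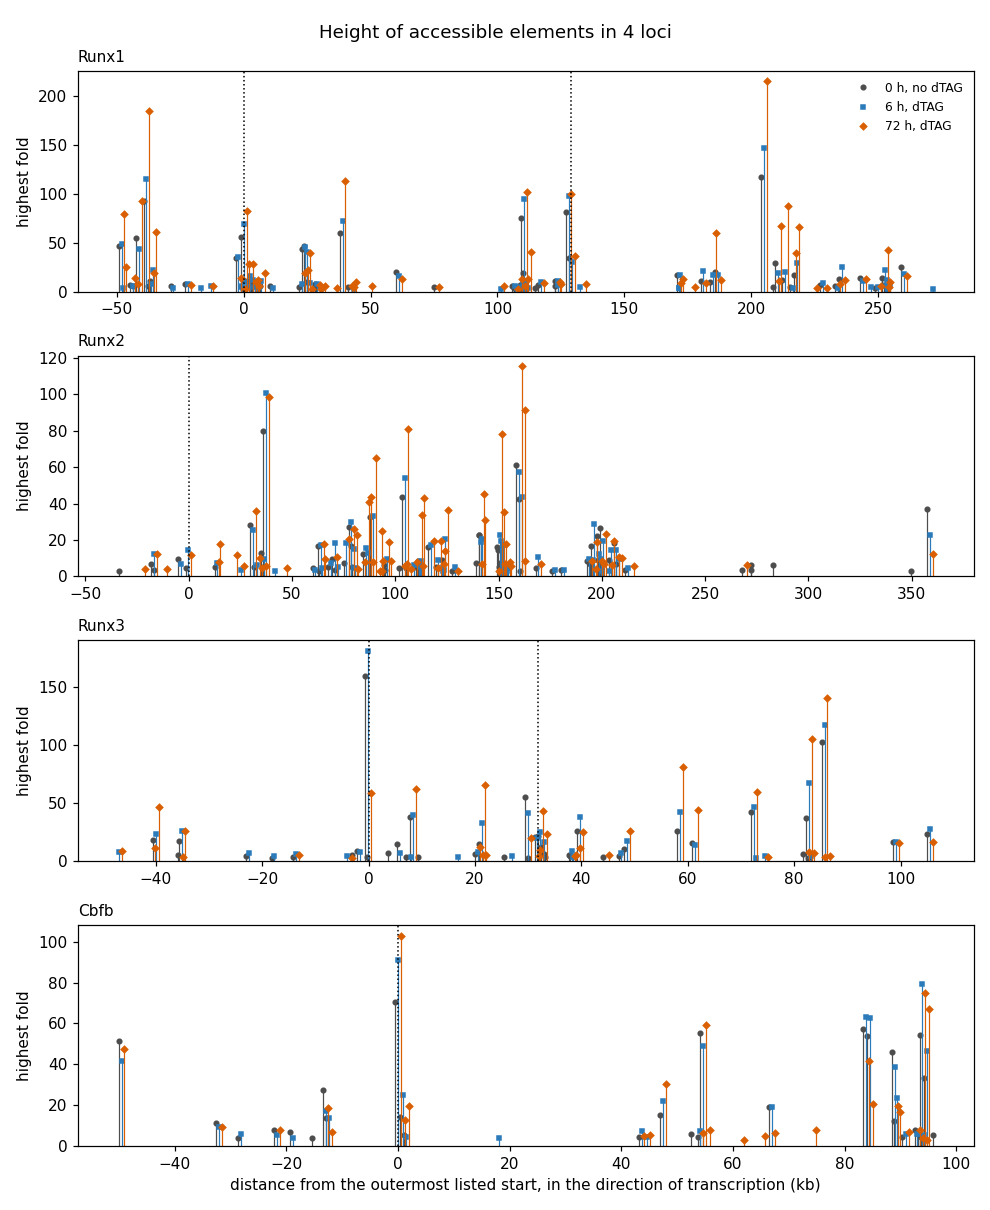
Highest fold of each element against its distance from the outermost listed start, for the 4 genes with 50 kb on each side. Stems of the 3 libraries are set slightly apart for view, and dotted lines mark the listed starts. At Runx3 the stem at 0 kb is lower at 72 h (58.5) than at 0 h (160), while the stems at 21.3, 58.6 and 82.8 kb are higher.

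Loci of proteins that work with RUNX factors were counted the same way. Over all coding loci, the count was higher at 72 h than at 0 h in 17.7% and the median ratio was 0.818. Of 22 RUNX partners and cofactors, 7 held more, 14 fewer and 1 the same number, with a median ratio of 0.893. Etv6, an ETS repressor that forms a leukaemia fusion with RUNX1, held 47, 55 and 59, and Tle2 and Tle5, Groucho-family genes with the same counts, held 54, 49 and 44. Whether the regions counted for Tle2 and Tle5 are the same ones was not tested. Cbfa2t3, an ETO-family corepressor, held 46, 40 and 35. Of 12 transcription factors that share elements with RUNX1 in blood cells, 4 held more, 7 fewer and 1 the same, with a median ratio of 0.923. Gata2, a stem cell and mast cell factor, held 31, 26 and 16, Myb 38, 35 and 29, and Fli1 55, 52 and 47. Of 15 matched genes with known RUNX-bound elements, 2 held more and 13 fewer, with a median ratio of 0.848. Elane and Mpo, granule enzyme genes, held 77, 73 and 52 and 55, 74 and 34. Csf2 and Il3, neighbours whose loci overlap, held 22, 20 and 11 and 21, 16 and 10. The 2 genes with more, named after their values were seen, were Itgam, an integrin chain of myeloid cells, with 28, 31 and 35, and Cd4, a T-cell coreceptor, with 41, 42 and 42. Cebpa and Spi1 are in both of the last lists.

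By region counts in the 3 libraries, on the log2 scale after adding 1, the genes nearest to Runx1 were Fmnl2 (65, 74 and 73), Igf1r and Itpr2, at distances of 0.0839, 0.0897 and 0.130. Those nearest to Runx2 were Vps13d, Akap13 and Iqsec1, at 0.121 to 0.132, and those nearest to Cbfb were Mrpl52, Cxcl9 and Golph3l, at 0.0431 to 0.0444. Gper1 had the same 3 counts as Runx3, and Rapgefl1 (43, 36 and 37) and Rab20 (41, 35 and 38) followed. Counts alone do not say where regions lie.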

How the data were processed

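The authors deposited 1 narrowPeak list per library, called separately. Per the submitters' processing notes, MACS2 2.2.7 and BWA 0.7.17 were among the tools, with HOMER, limma, edgeR, ChIPseeker, bedtools 2.30.0 and FastQC 0.11.8 with MultiQC, and the build was mm10. Their options and the handling of duplicates: not given in the sources used here. The deposited columns used are position, summit, fold (a ratio over the caller's background, read as having 1 added to both) and −log10 q. The deposited −log10 p-value was used to check the grid, and the deposited score was not used. Every fold was a whole multiple of 1 step (100% within 0.01 of a step, wider above 100 steps), and a Poisson tail of the fragments so read matched the −log10 p of 100% of regions under 60 fragments within 2%, which gives summit fragments.

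The members and lists were chosen with earlier results of these data known. Regions were matched by at least 1 bp, and a locus was the RefSeq span with 50 kb on each side. The rule named start regions, the 3 highest of each list and those of fold 10 or more absent from another list; of the start regions, weak ones beside a stronger one are not all printed, and elements with wide shifts were named after their values were seen. Of 50 entries in 3 gene lists 49 matched a symbol; Tcrb did not. The planned comparison of the proteins was not made. Ranks were planned among gene ends and were made among listed starts, and the joining of regions into elements was added after seeing the data. Starts were listed for 17491 coding genes. Overlap and ranking code was tested on simulated regions. Python 3.11.15, numpy 2.4.6, pandas 2.3.3, scipy 1.17.1 and matplotlib 3.10.9 were used. Alternatives were a flank of 10 kb or none, a −log10 q or fold of at least 10, lists of equal length, merging of regions under 150 bp apart, an overlap of 50% of the shorter region, start windows of 500 bp or 2 kb, ranks by −log10 q and, added after seeing the data, a shift of 20 points.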

Additional observations from a re-analysis of the deposited data

How the results depend on the processing

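No paired analysis was possible because each group holds 1 library, so no library could be left out either. Of 158 values recomputed under an alternative, 120 kept their direction and stayed close to the reported value, that is, within its counting interval for ratios and shares, within the binomial interval of the ranks for start shifts, and within 1.5 times for counts of elements. The order of region counts did not hold. With a −log10 q of at least 10, the ratio to 0 h became 1.32 at 6 h and 1.61 at 72 h for Runx2 and 1.1 at 72 h for Runx3. With a fold of at least 10 it became 1.38 and 1.81 for Runx2, 1.05 at 72 h for Runx3, and 0.933 at both times for Cbfb. In lists of equal length it was 0.922 at 6 h for Runx1, 1.03 and 1.23 for Runx3 and 0.923 at 6 h for Cbfb, and with merged regions 0.957 at 6 h for Cbfb. Other settings kept the Runx3 ratio at 72 h below 1. It was 0.724 with a flank of 10 kb, 0.708 in the gene span alone and 0.811 with merged regions. At 72 h the ratio stayed above 1 under each alternative run for Runx1 (1.1 to 1.32) and Runx2 (1.15 to 1.81). The background moves with the setting too. The whole lists held 66637 regions of fold 10 or more at 0 h and 71819 at 72 h, and lists of equal length have no deficit at 72 h. Ratios of the other loci at these settings are not given here, so a ratio above 1 is not by itself a gain over them.

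Overlap of 0 h regions at 6 h moved as follows: with a −log10 q of at least 10 it was 97.1% for Runx1, 96.4% for Runx2, 90.5% for Runx3 and 100% for Cbfb, and with a fold of at least 10 it was 95.2% for Runx2 and 94.7% for Runx3. At 72 h it was 89.3% for Runx2 and 90.5% for Runx3 by −log10 q, 90.5% and 89.5% by fold, and 89.1% for Runx2 in lists of equal length. Inside the Cbfb span it was 100% at both times, with 4 regions. Shares of 72 h regions with none at 0 h were 42.2% for Runx2 and 6.67% for Cbfb by −log10 q. By fold they were 34.1% for Runx1, 47.4% for Runx2 and 7.14% for Cbfb, where a weaker 0 h region no longer counts. The whole-list shares given above are for the full lists and are not the background for the thresholded shares in this paragraph. Whole-list shares at these thresholds are not given here.

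The start shift at 72 h was 7.0 points for Runx2 with a window of 500 bp. With a window of 2 kb it was −1.2 for the proximal Runx1 start, 8.74 for Runx2, −58.2 for the distal Runx3 start and −10.9 for the proximal Runx3 start, whose wider window takes in the higher region before it. With shifts of at least 20 points, elements lower at 72 h numbered 6 for Runx1 and 1 for Runx3, against 19.3% of all distal elements. Summits of 3 to 10 fragments limit what can be said of weak regions.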
